A study of Populus x canadensis with 3 samples.

Results

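miR398 and miR408 are plant microRNA families that act on messages for copper proteins. Their members were taken as every entry of the deposited root table whose name holds miR398 or miR408, with each distinct sequence counted once. This gave 5 sequences from 6 entries, 2 of miR398 and 3 of miR408, out of 472 distinct sequences in 673 entries. The roots came from water-cultured cuttings of the hybrid poplar Populus × euramericana "Neva", which were 60 days old when para-hydroxybenzoic acid (pHBA), a phenolic acid found in soil, was given for 3 days. The libraries are called PHBA0_R (roots without pHBA), PHBA2_R and PHBA4_R, after labelled doses of 0, 2 and 4 mML-1, a unit the labels do not explain. RNA of plants with the same treatment was mixed in equal parts, so each dose is 1 library, no difference has a replicate check and no p-value is given. Intervals in brackets are 95% intervals that cover counting error only. The table lists miRNAs alone, so the root label was not checked against tissue markers.

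In Arabidopsis, miR398 acts on the messages of copper/zinc superoxide dismutases and of the chaperone that loads them with copper. miR408 acts there on plantacyanin and on laccases, copper proteins of the cell wall and extracellular space. Both are switched on by the transcription factor SPL7 when copper is scarce, and lower synthesis of dispensable copper proteins leaves the metal for plastocyanin in photosynthesis. miR398 is also known to answer to oxidative stress, and the dismutases among its targets remove superoxide. The table of miRNAs holds no measure of oxidative stress. Plant miRNAs pair with their targets over nearly their whole length, and the base at the 5′ end biases which Argonaute protein takes them up.

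The sequences are shown because the members differ in their ends and in single bases. The miR398 sequences had normalized levels in the same order over the libraries, though by unlike factors. Reads may have been divided between them, so this likeness may come from the counting. ptc-miR408-3p and mtr-miR408-3p_L-1R+2, also close in sequence, did not share an order. The sequences below are written 5′ to 3′ in the DNA letters of the deposited table, with the seed, bases 2 to 8, in capitals.
ptc-miR398b: tGTGTTCTcaggtcgcccctg
ptc-miR398a_1ss15AG: tGTGTTCTcaggtcgcccctt
ptc-miR408-3p: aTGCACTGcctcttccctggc
mtr-miR408-3p_L-1R+2: tGCACTGCctcttccctggctc
hbr-miR408a_R-1_1ss6TG: aAGACGGGgaacaggcagagc

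The miR398 sequences share 1 seed, which no other listed sequence has, and differ by G21T at the last base, counted from 1 at the 5′ end of ptc-miR398b. The suffix 1ss15AG of ptc-miR398a_1ss15AG says that it departs from the registered poplar sequence by A15G. Both are 21 nt long and begin with T, as 44.7% of the 472 listed sequences do. Only ptc-miR398b has more than 1 entry among the members (2 entries), and its reads, like those of ptc-miR398a_1ss15AG, are not whole numbers in PHBA2_R and PHBA4_R, and its 125.5 reads in PHBA0_R are not whole either. Reads of near-identical miR398 copies may therefore have been divided, and the split between these sequences is uncertain. If reads of ptc-miR398b were divided between its 2 entries, counting the sequence once understates its level and its place by abundance. Its weight against sequences with 1 entry would then be too low in every library.

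The miR408 sequences are taken here as coming from both strands of the hairpin. mtr-miR408-3p_L-1R+2, named after the sequence of Medicago truncatula, is an end variant of ptc-miR408-3p, the poplar form. They share a run of 20 bases that begins at base 2 of the poplar form and at base 1 of the variant, and the variant carries 2 further bases at its 3′ end. The variant thus has 22 nt, begins with T where the poplar form begins with A, and has its seed moved by 1 base. hbr-miR408a_R-1_1ss6TG, named after the rubber tree Hevea brasiliensis with a substitution of T6G, carries no strand in its name. Set antiparallel to ptc-miR408-3p without gaps, it formed 15 Watson-Crick pairs, 1 G-T pair and 3 mismatches. None of the other 471 sequences gave as many pairs, and the next reached 12. It is called the opposite strand here from this pairing alone, and its place in a hairpin was not looked at. The aligned stretch runs from base 3 to base 21 of each strand, so 2 bases reach past it at each 5′ end and 0 at each 3′ end. The overhangs thus lie at the 5′ and not the 3′ ends, which leaves the name opposite strand provisional.

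ptc-miR398b was higher at each dose than at the one below it. Its level was 62.6 normalized reads in PHBA0_R, 183 in PHBA2_R and 643 in PHBA4_R, from 125.5, 141.3 and 428.7 reads. Normalized reads are the authors' values, which are reads times 1 constant per library with no term for length. The counting intervals of these levels, 52.3 to 74.8, 153 to 215 and 584 to 707, did not overlap. PHBA2_R was 2.92-fold above PHBA0_R (2.27 to 3.72), PHBA4_R was 10.3-fold above PHBA0_R (8.38 to 12.6), and PHBA4_R was 3.52-fold above PHBA2_R (2.91 to 4.30). In order of abundance it stood at place 171 of 472 in PHBA0_R, 118 in PHBA2_R and 70 in PHBA4_R. In roots taken whole, more cells that make a miRNA and more of it per cell cannot be told apart.

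ptc-miR398a_1ss15AG had far fewer reads, which were lowest in PHBA2_R, but its normalized levels stood in the same order of libraries. Its level was 8.97 normalized reads in PHBA0_R, 14.7 in PHBA2_R and 31.0 in PHBA4_R, from 18, 11.3 and 20.7 reads. PHBA4_R was 3.45-fold above PHBA0_R (1.78 to 6.99), while the interval of PHBA2_R against PHBA0_R held a ratio of 1 (1.63-fold, 0.677 to 3.54). Its share of miR398 reads was 12.5% in PHBA0_R (Wilson 95% interval 8.06 to 18.9), 7.42% in PHBA2_R (4.06 to 12.4) and 4.60% in PHBA4_R (3.08 to 7.04). The shares of PHBA0_R and PHBA4_R did not overlap, and that of PHBA2_R overlapped both. The strand opposite to miR398 has no entry named miR398 in the table.

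ptc-miR408-3p was the most abundant member in every library and differed little between doses. Its level was 1597 normalized reads in PHBA0_R, 2071 in PHBA2_R and 1618 in PHBA4_R, from 3203, 1602 and 1079 reads. PHBA2_R was 1.30-fold above PHBA0_R (1.22 to 1.38) and PHBA4_R was 1.28-fold below PHBA2_R (1.18 to 1.38). The interval of PHBA4_R against PHBA0_R held a ratio of 1 (1.01, 0.945 to 1.09), with a log2 ratio of 0.02 as deposited and of 0.34 with equal library totals. It stood at place 33, 29 and 36 of the 472 sequences.

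The minor miR408 sequences were highest in PHBA2_R and lowest in PHBA4_R. The end variant mtr-miR408-3p_L-1R+2 stood at 76.8 normalized reads in PHBA0_R, 172 in PHBA2_R and 25.5 in PHBA4_R, from 154, 133 and 17 reads. It was 2.24-fold higher in PHBA2_R than in PHBA0_R (1.76 to 2.84) and 3.01-fold lower in PHBA4_R than in PHBA0_R (1.82 to 5.30). Between PHBA2_R and PHBA4_R it was 6.74-fold lower (4.06 to 11.9), and its 3 level intervals did not overlap.

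The opposite strand hbr-miR408a_R-1_1ss6TG stood at 61.8 normalized reads in PHBA0_R, 87.9 in PHBA2_R and 40.5 in PHBA4_R, from 124, 68 and 27 reads. It was 1.42-fold higher in PHBA2_R than in PHBA0_R (1.04 to 1.93), 1.53-fold lower in PHBA4_R than in PHBA0_R (1.00 to 2.41) and 2.17-fold lower in PHBA4_R than in PHBA2_R (1.37 to 3.53). Its level intervals in PHBA0_R and PHBA2_R overlapped, as did those in PHBA0_R and PHBA4_R.

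**Figure D1:**
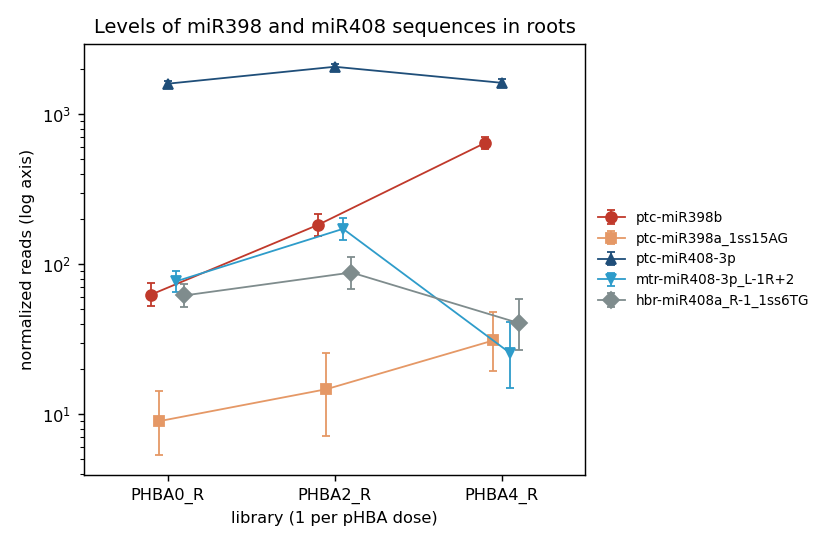
Level of each miR398 and miR408 sequence (normalized reads, log axis) in the 3 libraries, with lines joining the values of 1 sequence and bars for exact Poisson 95% intervals of its reads. ptc-miR398b runs from 62.6 to 643 while ptc-miR408-3p stays between 1597 and 2071.

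The make-up of miR408 differed between libraries, a comparison within each library that no scaling constant enters. ptc-miR408-3p held 92.0% of miR408 reads in PHBA0_R (91.1 to 92.9), 88.9% in PHBA2_R (87.3 to 90.2) and 96.1% in PHBA4_R (94.8 to 97.1). The end variant held 4.42% (3.79 to 5.16), 7.38% (6.26 to 8.68) and 1.51% (0.947 to 2.41), and none of these intervals overlapped. The opposite strand held 3.56% (2.996 to 4.23), 3.77% (2.99 to 4.75) and 2.40% (1.66 to 3.48), with overlapping intervals. The variant therefore had the larger part in the different make-up. Per read of the opposite strand there were 1.24 reads of the variant in PHBA0_R (0.974 to 1.59), 1.96 in PHBA2_R (1.45 to 2.66) and 0.630 in PHBA4_R (0.322 to 1.20). The values of PHBA4_R rest on 17 and 27 reads.

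**Figure D2:**
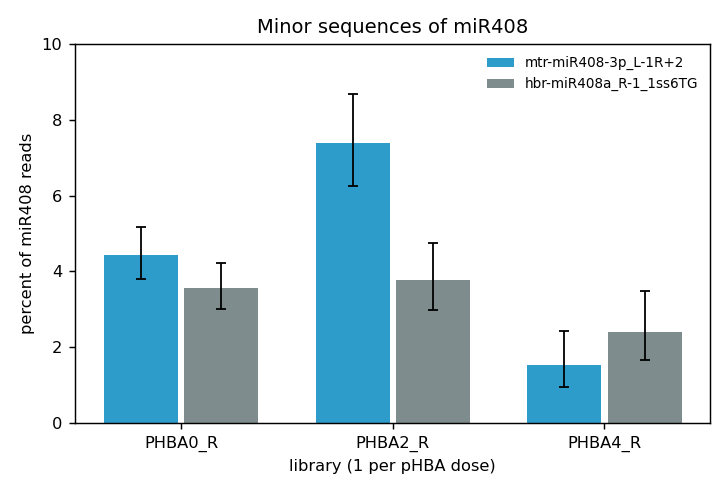
Percent of miR408 reads held by the end variant mtr-miR408-3p_L-1R+2 and by the opposite strand hbr-miR408a_R-1_1ss6TG in each library, with Wilson 95% intervals as bars; ptc-miR408-3p holds the rest. The variant runs over 4.42%, 7.38% and 1.51%, and the opposite strand over 3.56%, 3.77% and 2.40%.

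In sum, miR398 stood at 71.5, 197 and 674 normalized reads and miR408 at 1735, 2331 and 1684 in PHBA0_R, PHBA2_R and PHBA4_R. The balance between the families moved toward miR398, which made up 3.96% of their joint reads in PHBA0_R (3.38 to 4.66), 7.81% in PHBA2_R (6.71 to 9.10) and 28.6% in PHBA4_R (26.4 to 30.8). For each read of ptc-miR398b there were 25.5 reads of ptc-miR408-3p in PHBA0_R (21.3 to 30.6), 11.3 in PHBA2_R (9.56 to 13.6) and 2.52 in PHBA4_R (2.25 to 2.82). If reads were divided between the 2 entries of ptc-miR398b, miR398 is understated in these sums, shares and ratios. Both families together took 0.253% of all listed reads in PHBA0_R, 0.360% in PHBA2_R and 0.413% in PHBA4_R.

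The members were set against all sequences whose mean over the libraries reached 10 normalized reads, 289 in number, which include all 5 members. A sequence counts as at least 2-fold higher or lower when the log2 ratio of normalized reads, each plus a pseudocount of 1, is at least 1 in size. From PHBA0_R to PHBA2_R, 2 of 5 members were at least 2-fold higher (ptc-miR398b and the miR408 end variant), against 16.3% of all tested sequences, and 0 were lower, against 9.69%. From PHBA0_R to PHBA4_R, the 2 miR398 sequences were at least 2-fold higher, against 23.9%, and the miR408 end variant was lower, against 21.1%. From PHBA2_R to PHBA4_R, the same miR398 pair was higher, against 17.3%, and the minor miR408 sequences, 2 of 3, were lower, against 16.3%. Among 5 members, a count of 1 or 2 says little beside these shares. The median log2 ratio of the members was 0.65, 0.02 and -0.36 in the order of these comparisons, beside -0.03, 0.01 and 0.03 over all tested sequences.

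Of the calls between PHBA2_R and PHBA4_R, the smaller ones depend on the settings. For ptc-miR398a_1ss15AG the log2 ratio was 1.03, and 0.99 with median-of-ratios factors, 0.96 with equal totals outside miR472, miR482 and miR1448, and 0.73 with a pseudocount of 10. For hbr-miR408a_R-1_1ss6TG it was -1.10, and -0.81 with equal totals and -0.96 with a pseudocount of 10. With equal totals, which move the median of all tested sequences up by 0.32 in PHBA4_R against PHBA0_R and by 0.29 against PHBA2_R, the tested sequences split into 86 higher and 44 lower (69 and 61 as deposited) and into 71 and 30 (50 and 47).

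By size of its log2 ratio, ptc-miR398b stood at place 23 from the highest of 289 sequences in PHBA2_R against PHBA0_R, at 11 in PHBA4_R against PHBA0_R and at 28 in PHBA4_R against PHBA2_R. The miR408 end variant stood at place 11 from the lowest in PHBA4_R against PHBA2_R.

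**Figure D3:**
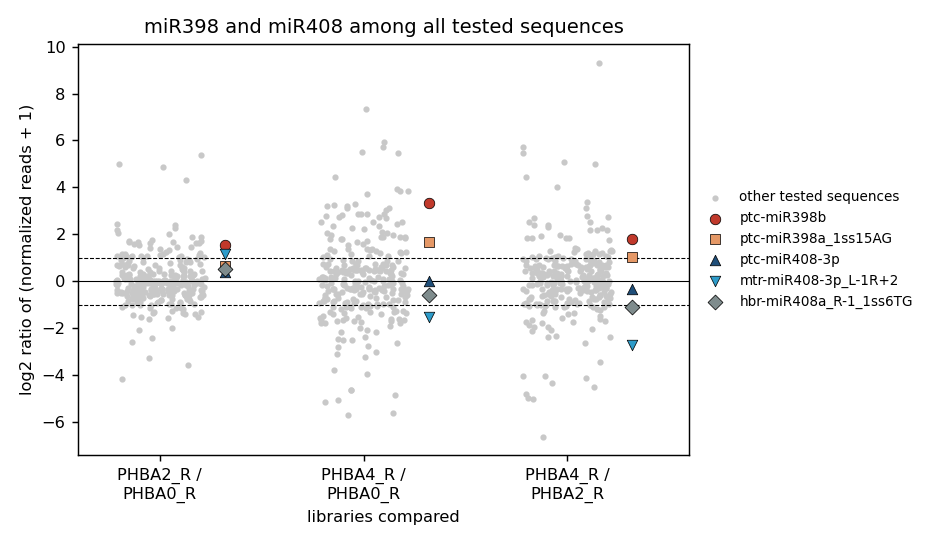
Log2 ratio of normalized reads plus 1 between each pair of libraries for the 289 tested sequences, with the 5 miR398 and miR408 sequences as coloured symbols, the others as grey points and dashed lines at 2-fold. ptc-miR398b lies above the upper line in all 3 pairs, and the miR408 end variant lies above it for PHBA2_R against PHBA0_R and below the lower line in both pairs with PHBA4_R.

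Annotations that are doubted as tRNA or rRNA fragments were, like miR398, higher in sum at both doses than in PHBA0_R. The 29 listed sequences of miR6300, miR5368 and miR6478, a list that also named the unlisted miR894 and miR5139, held 0.676% of reads in PHBA0_R, 2.08% in PHBA2_R and 3.97% in PHBA4_R. Their sum in PHBA2_R was 3.02 times that in PHBA0_R, in PHBA4_R it was 4.69 times that in PHBA0_R, and PHBA4_R stood at 1.55 times PHBA2_R. Without gma-miR6300, a sequence left out after its values were seen, these ratios were 3.17, 2.78 and 0.877 (0.851 to 0.904). The other 28 sequences in sum were thus lower in PHBA4_R than in PHBA2_R. gma-miR6300 itself had log2 ratios of 1.17, 3.86 and 2.69 in the same order of comparisons, beside 1.53, 3.34 and 1.81 for ptc-miR398b. In both comparisons with PHBA4_R it was thus higher by a larger factor than ptc-miR398b. Per 1000 reads of this list there were 12.9 reads of ptc-miR398b in PHBA0_R (10.8 to 15.5), 12.5 in PHBA2_R (10.5 to 14.7) and 28.4 in PHBA4_R (25.7 to 31.2). Without gma-miR6300 these reads per 1000 were 15.4, 14.2 and 57.1. Against PHBA0_R, then, ptc-miR398b and the summed list were higher by like factors in PHBA2_R, and ptc-miR398b by the larger factor in PHBA4_R. This does not hold for every listed sequence. In PHBA4_R against PHBA0_R, gma-miR6300_R+5_1ss2TC had a log2 ratio of 3.94 and gma-miR6300_L+1 of 3.82, both above ptc-miR398b. The median of the 25 tested sequences of the list was 1.85. No match of this list to tRNA or rRNA was made, and its part in the miR398 levels was not tested.

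With this list and all sequences under 20 nt left out, 241 sequences remained, which were not checked for other fragments. ptc-miR398b was then at place 7 from the highest in PHBA2_R against PHBA0_R, at 5 in PHBA4_R against PHBA0_R and at 9 in PHBA4_R against PHBA2_R. At least 2-fold higher values were found for 7.47%, 12.0% and 11.2% of these sequences in these comparisons, beside 2, 2 and 2 of the 5 members. At least 2-fold lower values were found for 9.54%, 25.3% and 17.8%, beside 0, 1 and 2 members. For ptc-miR408-3p, reads per 1000 of the fragment list went the other way, at 330 in PHBA0_R, 142 in PHBA2_R and 71.4 in PHBA4_R.

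The other families known to answer to copper, miR397, miR857 and miR1444, followed different patterns from each other. miR857, a laccase regulator in Arabidopsis, has no entry in the table. Of the 8 sequences of miR397 and miR1444, 5 passed the minimum mean, 1 and 4 of them. In PHBA2_R against PHBA0_R, 2 of these 5 were at least 2-fold higher and 0 lower, against 16.3% and 9.69% of all tested sequences. Their median log2 ratio was 0.95, beside -0.03 over all tested sequences. In PHBA4_R against PHBA0_R the numbers were 0 and 1, against 23.9% and 21.1% (median 0.00, beside 0.01). In PHBA4_R against PHBA2_R they were 0 and 1, against 17.3% and 16.3% (median -0.95, beside 0.03). Counts this small say little beside these shares.

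ptc-miR397a, which is directed at laccase messages, was in the opposite order to ptc-miR398b, at 299 normalized reads in PHBA0_R, 162 in PHBA2_R and 115 in PHBA4_R. Per read of ptc-miR398b there were 4.77 reads of ptc-miR397a in PHBA0_R (3.92 to 5.81), 0.884 in PHBA2_R (0.691 to 1.14) and 0.180 in PHBA4_R (0.139 to 0.229). With each distinct sequence counted once, the more abundant of the pair was thus miR397a in PHBA0_R and miR398b in PHBA4_R. The interval of PHBA2_R then held equal reads, but ptc-miR398b has 2 entries. If its reads were divided between them, this interval does not settle the order in PHBA2_R. For ptc-miR408-3p, which shares laccases as targets with miR397 in Arabidopsis, there were 5.35 reads per read of ptc-miR397a in PHBA0_R (4.90 to 5.84), 12.8 in PHBA2_R (10.7 to 15.5) and 14.0 in PHBA4_R (11.1 to 17.9).

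ptc-miR1444a_R+1, of a poplar family that acts on polyphenol oxidases, was highest in PHBA2_R, as miR408 was, at 1905, 5167 and 2649 normalized reads. It stood at 30.5 reads per read of ptc-miR398b in PHBA0_R (25.4 to 36.5), at 28.3 in PHBA2_R (24.0 to 33.8) and at 4.12 in PHBA4_R (3.70 to 4.59). The first pair of intervals overlapped and the last lay below both. Against ptc-miR408-3p it stood at 1.19 (1.14 to 1.25), 2.49 (2.35 to 2.64) and 1.64 (1.52 to 1.77) reads per read, with no overlap.

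**Figure D4:**
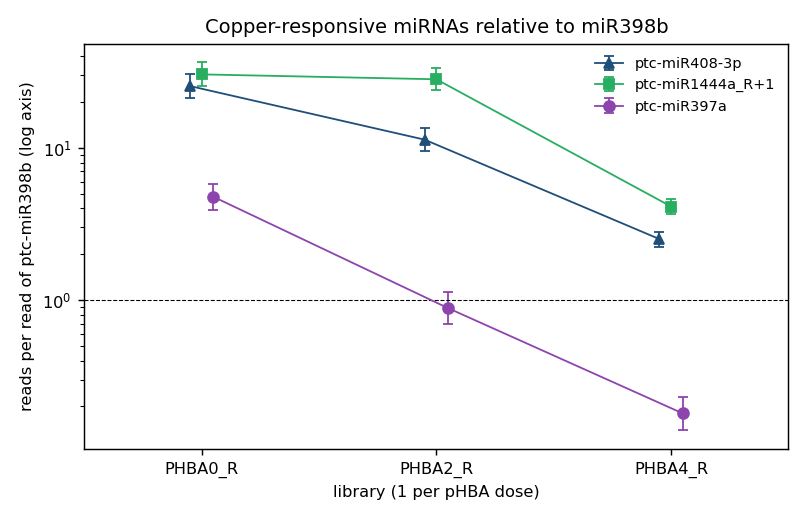
Reads of ptc-miR408-3p, ptc-miR1444a_R+1 and ptc-miR397a per read of ptc-miR398b in each library (log axis), with exact binomial 95% intervals as bars and a dashed line at equal reads. All 3 series are lowest in PHBA4_R, at 2.52, 4.12 and 0.180. Each distinct sequence is counted once, so these values are too high if reads of ptc-miR398b were divided between its entries.

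The sequences closest in pattern were found by the distance between profiles of log2 normalized reads plus 1, centred over the 3 libraries, among 284 tested sequences of other families. Closest to ptc-miR398b were peu-MIR2916-p3_1ss14CT (distance 0.24), at 45.4, 110 and 378 normalized reads, and vvi-miR3630-3p_L-2 (0.24), at 73.5, 170 and 646. Next came hbr-MIR6173-p5_1ss13AG (0.32), at 4.49, 19.4 and 52.5, and then gma-miR6300_R+1_2 and gma-miR6300_R+1_3 (0.38 each), which have the same 3 values, 4.74, 11.0 and 41.2. gma-miR6300_R+1_1 has the same log2 ratios and so ties with them, but fell outside the 5 named. These gma-miR6300 sequences belong to the doubted fragment list, and the other neighbours were not checked for a fragment origin. The median distance over all 284 was 2.49. None of the 5 carries the ptc prefix.

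Closest to ptc-miR408-3p were ptc-miR166n_L+2R-2 (distance 0.09), at 9847, 11800.1 and 9889 normalized reads, and ptc-MIR156j-p3 (0.10), at 515, 628 and 538. ptc-miR169b-3p_L+1 (0.18), ptc-MIR7813-p3_1ss1CT (0.19) and ptc-MIR6462f-p5 (0.19) followed, and the median distance was 0.93. A profile of 3 values that differ little is close to many others, so these distances are a description of 3 libraries.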

How the data were processed

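Per the labels' protocols, total RNA of roots was mixed by treatment and made into libraries by standard Illumina methods. The submitters' processing notes name bcl2fastq 1.8.4. An aligner, a counting tool and a miRNA database are not named in the sources used here. The authors deposited an expected count for each entry and library, and a normalized signal that equals this count times 0.498, 1.29 and 1.50 in PHBA0_R, PHBA2_R and PHBA4_R. Listed sequences, each counted once, held 1434442, 542913 and 380800 reads.

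Ratios use the deposited signal. Their exact conditional binomial (Clopper-Pearson) intervals, the Wilson intervals of shares and the Poisson intervals of levels use expected counts rounded to whole reads. These cover counting error only, since each dose is 1 library. They also treat each read as a separate molecule, since reads carry no molecular identifiers. Calculations used Python 3.11.15, numpy 2.4.6, pandas 2.3.3 and scipy 1.17.1, and were tested on simulated counts. All members are named, with the most abundant sequence of each other copper family and the 5 nearest profiles. Other scalings, pseudocounts (10 and 0.1), minimum means and ways of counting entries were tried. The members and lists were chosen with earlier results of these data known. Target messages and genome positions were not analysed here.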

Additional observations from a re-analysis of the deposited data

How the results depend on the processing

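Equal library totals moved the log2 ratio of the miR398 sum outside its counting interval in PHBA4_R against PHBA0_R (3.56, against 3.24 as deposited) and against PHBA2_R (2.07, against 1.77). They moved that of the miR408 sum to 0.28 (from -0.04, so the sign turned) and to -0.17 (from -0.47). Median-of-ratios factors, equal totals outside miR472, miR482 and miR1448 (a choice made after the data were seen), the most abundant strand alone and every entry counted left the 6 family ratios inside their intervals. Of 45 member ratios under 3 scalings, 43 kept their sign, and the other 2 are those of ptc-miR408-3p in PHBA4_R against PHBA0_R (-0.02 with median-of-ratios factors and -0.01 with equal totals outside those families). Of 75 member calls under 5 alternatives, 70 were kept. Counts of sequences at least 2-fold apart were 75, 130 and 97 for PHBA2_R against PHBA0_R, PHBA4_R against PHBA0_R and PHBA4_R against PHBA2_R. They were 191, 274 and 208 with no minimum mean and 31, 53 and 26 at a mean of at least 100, where 472 and 143 sequences were tested in place of 289. Without fragment families and sequences under 20 nt the first was 41, and the splits into higher and lower were 18 and 23, 29 and 61, and 27 and 43. With every entry counted the second was 203. No paired analysis was possible because each dose has 1 library, and for the same reason no replicate could be left out. Depth limits ptc-miR398a_1ss15AG most, with 18, 11.3 and 20.7 reads, and the minor miR408 sequences in PHBA4_R, with 17 and 27.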
